A study of Mus musculus with 4 samples.

Results

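The regions described here are stretches of open chromatin that lie inside very long genes and that differed in accessibility between T helper cell populations of mice with house dust mite (HDM) airway inflammation. A region was taken when its midpoint lay inside a protein-coding gene of at least 300 kb on chromosomes 1 to 19 (GRCm38) and more than 1 kb from both ends of that gene, and rows overlapping by at least 1 bp were merged. This gave 2645 of the 51390 merged regions listed on these chromosomes, or 5.15% (exact binomial interval 4.96 to 5.34 at the 95% level, as for all shares here). They came from 4768 of 90402 rows. They lay in 340 of 533 such long genes, and long genes made up 2.58% of the 20665 protein-coding genes. The choice used gene length and position and no measured value.

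The study profiled chromatin by ATAC-seq, in which the Tn5 transposase inserts adapters into accessible DNA, in 4 T helper populations sorted 15 days after mice were sensitised and challenged intranasally with HDM extract. Th2 cells were gated as CD3+CD4+CD44+ST2+CD30L+, other effector cells as memory cells without ST2 (CD3+CD4+CD44+ST2-CD30L+) and Treg cells as CD3+CD4+CD25hiCD30L-, all from lung with airways. For naive cells (CD3+CD4+CD44loCD62Lhi) the labels conflict: the sorting protocol gives their source as mLN, a lymph node, while the tissue and source labels give lung. If the protocol holds, organ and cell state cannot be told apart in their 3 comparisons. All 4 populations came from HDM-treated mice, and the labels give no strain or genotype. For each of the 6 pairs of populations the authors deposited a table of differential regions with 1 fold per region, which was read as log2 and signed as first-named minus second-named population. The fold is the authors' own value. The tables hold no replicate values, counts or p-values, so nothing below is a test over samples: intervals cover counting error only, and regions of 1 gene are not replicates. In sorted pools, a region open in fewer cells and a region less open in every cell cannot be told apart.

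In mammals most of the length of a very long gene is intron, and introns often hold enhancers, alternative promoters and smaller genes of their own. Many of the longest genes code for adhesion and synaptic proteins of neurons, while a smaller number code for transcription factors and signalling proteins that T cells use, such as Foxp1 and Bach2. Long transcripts also take long to complete, and some of the largest genes span common fragile sites of the genome.

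Some members lay over a promoter inside a long gene. The RefSeq promoter table (GRCm38.p6), which holds windows of 250 bases before to 50 bases after a start, contained 273 windows inside 179 long genes, and members overlapped 35 of them (12.8%), 11 with a listing in a table without other effector cells. Of these 11, the following 6 are shown as examples, chosen after their values were seen. They do not cover every listing pattern, and Mctp1 and Nav2 have the same one. They are printed 5′ to 3′ along the gene, and capitals mark the motifs found on either strand. The motifs searched were AP-1 TGANTCA, ETS GGAAGT, RUNX TGTGGT, TCF and LEF CTTTGA, the GATA motif AGATAA, the nuclear receptor motif AGGTCA, the CTCF core CCCTC and NF-kB GGGANTTCC.
Foxp1: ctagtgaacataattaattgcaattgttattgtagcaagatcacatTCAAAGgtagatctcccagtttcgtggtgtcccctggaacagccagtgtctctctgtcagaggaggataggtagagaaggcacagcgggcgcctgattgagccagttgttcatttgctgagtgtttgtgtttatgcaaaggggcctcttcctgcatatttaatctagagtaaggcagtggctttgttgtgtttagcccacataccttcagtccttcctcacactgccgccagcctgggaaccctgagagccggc
Thrb: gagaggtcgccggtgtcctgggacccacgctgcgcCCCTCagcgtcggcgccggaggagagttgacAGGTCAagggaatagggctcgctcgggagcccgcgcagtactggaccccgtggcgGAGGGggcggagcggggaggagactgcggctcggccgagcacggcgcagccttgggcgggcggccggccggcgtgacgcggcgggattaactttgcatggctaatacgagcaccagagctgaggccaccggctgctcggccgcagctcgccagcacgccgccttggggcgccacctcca
Nebl: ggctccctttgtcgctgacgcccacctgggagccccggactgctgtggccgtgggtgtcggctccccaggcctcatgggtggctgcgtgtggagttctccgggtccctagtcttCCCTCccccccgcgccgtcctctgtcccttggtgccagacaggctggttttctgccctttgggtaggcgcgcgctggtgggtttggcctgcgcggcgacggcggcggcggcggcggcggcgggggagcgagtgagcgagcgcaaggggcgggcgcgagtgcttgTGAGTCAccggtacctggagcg
Creb5: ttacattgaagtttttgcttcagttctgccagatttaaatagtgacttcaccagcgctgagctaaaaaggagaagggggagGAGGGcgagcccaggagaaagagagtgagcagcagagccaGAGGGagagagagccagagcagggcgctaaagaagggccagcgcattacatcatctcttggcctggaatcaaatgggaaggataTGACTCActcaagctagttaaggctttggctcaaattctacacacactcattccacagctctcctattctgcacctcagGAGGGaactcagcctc
Mctp1: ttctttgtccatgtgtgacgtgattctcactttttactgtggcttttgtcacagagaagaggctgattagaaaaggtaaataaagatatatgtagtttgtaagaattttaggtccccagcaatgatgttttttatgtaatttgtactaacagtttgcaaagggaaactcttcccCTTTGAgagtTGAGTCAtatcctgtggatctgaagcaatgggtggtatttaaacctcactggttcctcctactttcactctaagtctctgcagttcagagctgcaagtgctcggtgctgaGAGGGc
Nav2: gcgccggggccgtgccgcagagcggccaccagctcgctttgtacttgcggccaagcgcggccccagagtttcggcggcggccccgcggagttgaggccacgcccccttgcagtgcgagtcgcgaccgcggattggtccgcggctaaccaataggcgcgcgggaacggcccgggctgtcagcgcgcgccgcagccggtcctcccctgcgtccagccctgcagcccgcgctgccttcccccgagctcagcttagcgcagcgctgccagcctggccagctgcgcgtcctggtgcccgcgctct
The windows lie at chr6:99266466-99266765 on the minus strand for Foxp1, chr14:17660710-17661009 (plus) for Thrb, chr2:17731085-17731384 (minus) for Nebl, chr6:53573124-53573423 (plus) for Creb5, chr13:76579347-76579646 (plus) for Mctp1 and chr7:49245939-49246238 (plus) for Nav2.

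The Foxp1 window, 256 kb from the 5′ end of the gene, was listed for naive cells. The authors' deposited tables give its member a log2 fold of 7.97 over other effector and 8.15 over Th2 cells. It held 1 TCF and LEF motif, which 16% of all 32851 promoter windows held. Thrb codes for the thyroid hormone receptor beta, and its window was listed as higher in naive cells than in other effector and Treg cells (6.89 and 6.89 in the authors' deposited tables) and higher in Th2 cells than in the same populations (-6.92 and -6.92). It held a nuclear receptor motif, as did 16.3% of all windows. Nebl, which codes for the actin-binding protein nebulette, had a window listed as higher in Treg cells than in other effector cells (-6.84) and than in Th2 cells (7.03) in the authors' deposited tables. Creb5, a leucine zipper transcription factor, had one listed as higher in Th2 cells than in other effector (-6.99) and Treg cells (-4.60) in the authors' deposited tables. The window of Mctp1, a membrane protein with calcium-binding C2 domains, was listed as higher in Th2 and Treg cells than in naive cells (-4.82 and -4.42 in the authors' deposited tables) and than in other effector cells (-5.62 and -5.17). The Nebl, Creb5 and Mctp1 windows each held 1 AP-1 motif, which 7.81% of all windows held, and that of Mctp1 also held 1 TCF and LEF motif. No AP-1 motif was found in the other printed windows. The windows not printed, in Dst, Pid1, Frmd4a and Fry and a second one of Thrb, also held none. Nav2, a cytoskeletal protein first described in neurons, had a window listed as higher in Th2 (-7.80 and -7.62) and Treg cells (-5.91 and -5.73) than in naive and other effector cells, in the authors' deposited tables, and it held none of the 8 motifs. The CTCF core was common, at 66% of all windows. A match is a string of letters and no measured binding site.

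Promoter windows covered few of the members, which the choice of regions partly fixed. Regions within 1 kb of an end of the long gene were left out, and with them most that lie over its outermost start. The share for other listed regions was not worked out. Only 37 (1.4%) overlapped one of their own long gene, a further 39 overlapped only that of another gene, and 2569 (97.1%) overlapped none. The windows cover 1 or a few starts per gene and 405 of the 533 long genes had a window that gave their strand, so unlisted starts could not be counted.

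Listed regions were sparse in long genes for their length. Members occurred at 8.77 per Mb of long gene (exact Poisson interval 8.44 to 9.11), against 30.3 (29.9 to 30.7) for the 20778 regions inside shorter genes. The density was 31.8 per Mb in genes under 50 kb, 32.8 at 50 to 100 kb, 29.7 at 100 to 200 kb, 22.2 at 200 to 300 kb, 14 at 300 to 500 kb and 5.26 at 500 kb or more. It was 1.71 in the 55 genes of at least 1000 kb, of which 18 held no member. Genes just inside the length limit held 0 to 11 members (Nxph1 0, Kcnq3 2, Zfp423 3, Cacna1a 7, Jazf1 11), and those just outside it 0 to 34 regions (Kcnmb2 and AW554918 0, Atp2b2 3, Slc44a5 4, Akap13 34).

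The members were concentrated in few genes. The median long gene held 2, while 193 held none, 67 exactly 1, 180 at least 5 and 91 at least 10, and those 91 held 65.4% of the members. The 12 genes with most members held 473 (17.9%). Foxp1, a forkhead factor that holds T cells in the naive state, had most, with 81. Bach2, a repressor that restrains effector differentiation, followed with 55. Wwox, an oxidoreductase gene over a fragile site, had 43, and Atxn1, a chromatin-binding partner of the repressor Capicua, and Rora, a nuclear receptor, had 38 each. Then came Itpr1 (34), an inositol trisphosphate receptor that releases calcium, Pde4d (32), a cyclic AMP phosphodiesterase, Rad51b (32), a recombination protein, Snx29 (31), a sorting nexin, Arid1b (30), a subunit of the BAF chromatin remodeller, Ldlrad4 (30), a regulator of TGF-beta signalling, and Lpp (29), an adhesion protein. Relative to length, Bach2 stood highest at 158 per Mb (119 to 206), then Foxp1 at 136 (108 to 169), Itpr1 at 101, Atxn1 at 91.5 and Ldlrad4 at 91.4. The intervals of Bach2 and Foxp1 overlap.

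**Figure D1:**
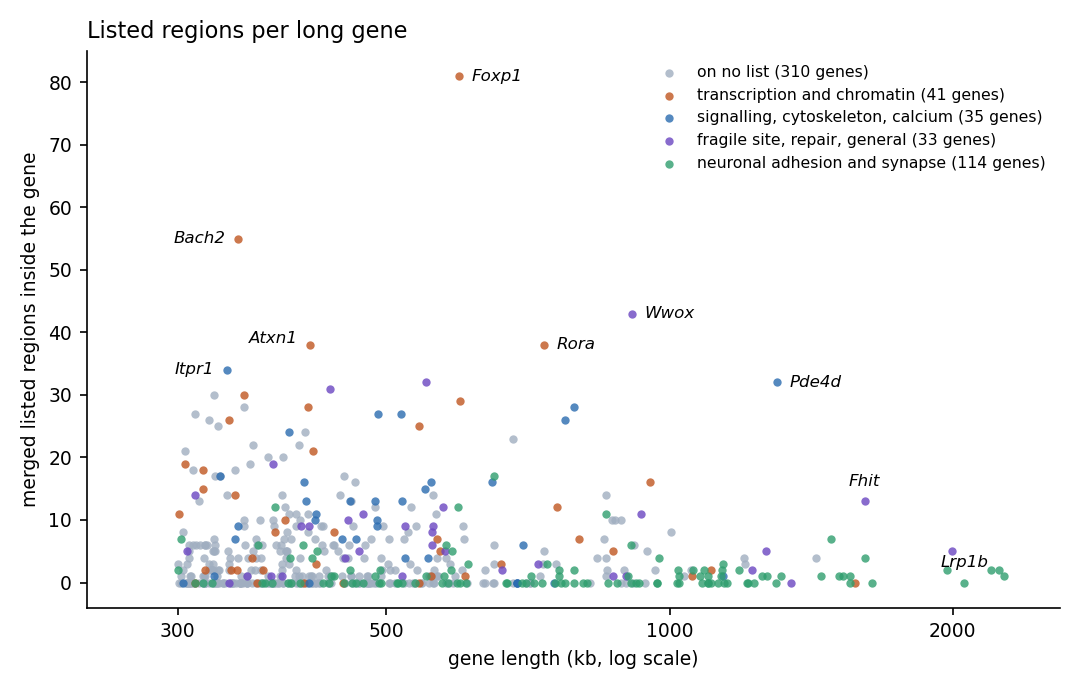
Each point is 1 of the 533 long genes, with its length in kb on a log axis and the number of merged listed regions inside it on the vertical axis; colours mark 4 gene lists. Foxp1 (81) and Bach2 (55) stand above the rest. The neuronal genes, many of them beyond 1000 kb, have a median of 0, and the highest of them is Nav2 (17).

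Neighbouring members of a gene lay a median of 10369 bp apart, and 713 of 2327 neighbouring pairs (30.6%) were under 5000 bp apart. Their median width was 452 bp (150 to 2152), against 499 bp for all other regions. Of the members, 1143 (43.2%) were listed in 1 table, 1002 (37.9%) in 2, 403 (15.2%) in 3 and 97 (3.67%) in 4, and none was in 5 or 6. Other regions were close to this, at 44%, 40.7%, 11.8% and 3.5%. Inside or within 1 kb of an end of a shorter gene lay 95 members (3.59%), and 12 lay in more than 1 long gene.

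The largest group of members was higher in naive cells than in other effector cells: 1180, or 44.6% (42.7 to 46.5), where 33.6% of all listed regions were. Regions inside shorter genes had 38.5% (37.8 to 39.1). Th2 cells were higher than other effector cells at 1131 members, or 42.8% (40.9 to 44.7), below the background of 53.2% and below shorter genes (48.1%, 47.4 to 48.8). Treg cells were higher than other effector cells at 912, or 34.5% (32.7 to 36.3), where the background was 46.7% and shorter genes had 42.9% (42.3 to 43.6). In the 3 tables with other effector cells, these were lower at every region. All regions carry 1 listing or more, which means that a set with many listings in 1 direction will tend to have few in the others.

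Naive cells were higher than Th2 cells at 409 members, 15.5% (14.1 to 16.9) against a background of 9.23% and 10.9% (10.4 to 11.3) in shorter genes. The reverse direction, Th2 over naive cells, held 291 members, 11% (9.83 to 12.3), near the background of 9.73%. Naive cells were higher than Treg cells at 252, 9.53% (8.43 to 10.7) against 5.75%, and Treg higher than naive cells at 236, 8.92% (7.86 to 10.1) against 6.67%. Shorter genes had 6.74% (6.41 to 7.09) and 7.38% (7.03 to 7.75) in these directions. Th2 cells were higher than Treg cells at 212, 8.02% (7.01 to 9.12) against 6.76%, and Treg higher than Th2 cells at 121, 4.57% (3.81 to 5.44) against 3.37%. For Th2 over naive, Th2 over Treg and Treg over Th2 cells the intervals of members and shorter genes (10.4%, 7.26% and 3.56%) overlap.

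**Figure D2:**
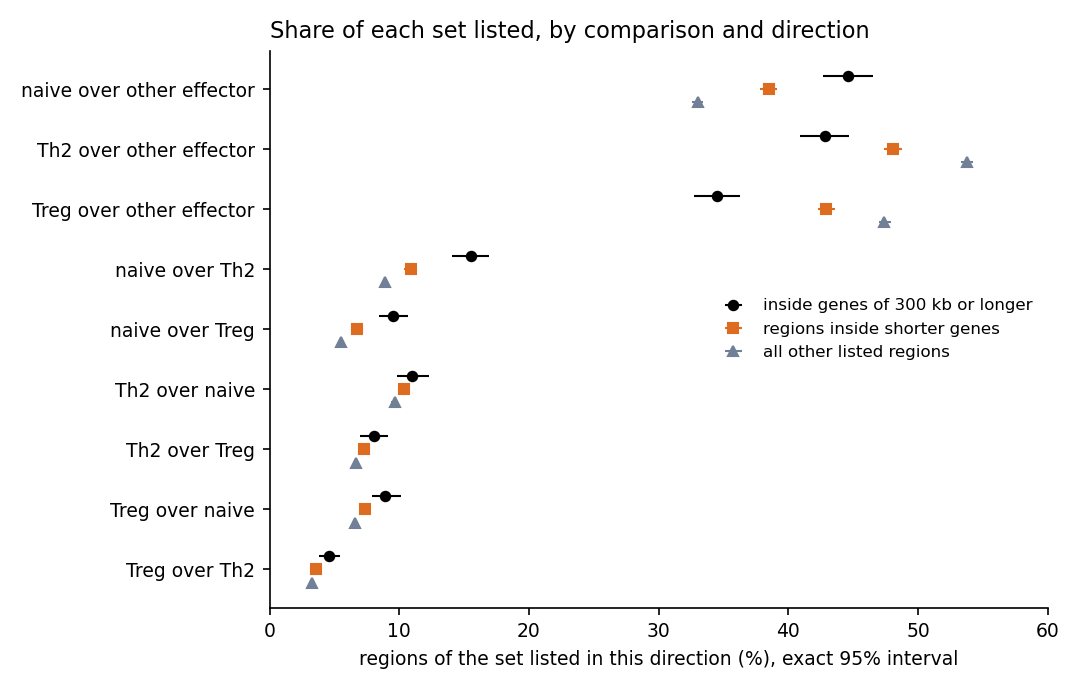
For each comparison and direction, points give the share (%) of a set of merged regions that the authors listed, with exact 95% binomial intervals: members, regions inside shorter genes and all other listed regions. Members lie to the right of the other sets for naive over other effector, Th2 and Treg cells and for Treg over naive cells. They lie to the left for Th2 and Treg over other effector cells. For Th2 over naive, Th2 over Treg and Treg over Th2 cells the point of members is also to the right. In these directions its interval overlaps that of shorter genes.

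In the naive versus Th2 table, members leaned more to naive cells than other regions did. Of the 700 member rows of naive versus Th2 cells, 58.4% (54.7 to 62.1) were higher in naive cells, against 51.1% (49.7 to 52.6) in shorter genes and 47.9% over all other regions. For naive versus Treg cells the share was 51.6% (47.1 to 56.2) of 488, against 47.7% (45.9 to 49.6) in shorter genes, and these intervals overlap. For Treg versus Th2 cells 36.3% (31.2 to 41.8) of 333 were higher in Treg cells, against 33% (31.1 to 35) in shorter genes. Among rows above the median fold size of a table, the naive share against Th2 cells was 52.1% (46.4 to 57.9) in members and 47.2% (45.1 to 49.3) in shorter genes. There the intervals overlap.

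The shares differed by gene length below the limit of 300 kb as well as across it. The first class takes in regions outside genes and regions within 1 kb of a gene end. There, regions higher in naive cells than in other effector cells made up 28.9%. Their share was 34.7% in genes under 50 kb, 39.2% at 50 to 100 kb, 42.1% at 100 to 200 kb and 40.8% at 200 to 300 kb. Above the limit it was 45.1% at 300 to 500 kb and 43.8% at 500 kb or more. For naive over Th2 cells the series was 7.43%, 8.45%, 12%, 12.5% and 12.1%, then 15% and 16.4%. Both series were thus level from 100 to 300 kb and higher above 300 kb. For Treg over other effector cells the share ran down, from 50.7%, 47.2%, 43.4%, 38.9% and 37% to 35.5% and 32.6%. In these 3 directions the intervals of neighbouring classes above 100 kb overlap. Region density fell over the same classes, and its part in these shares was not tested.

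**Figure D3:**
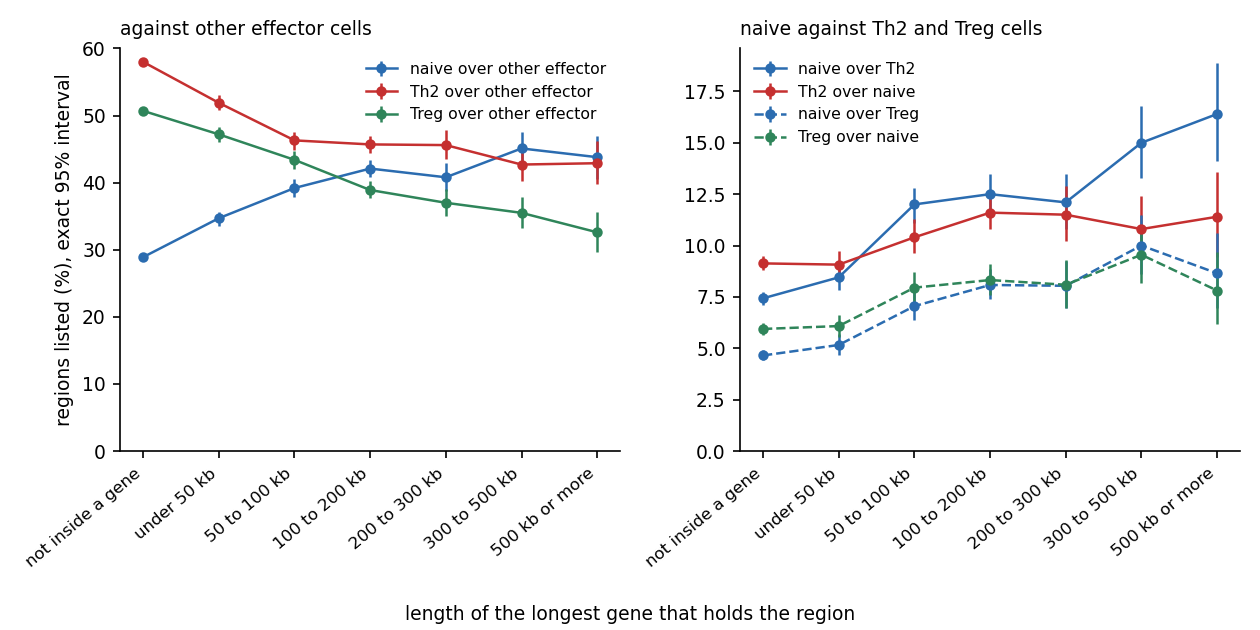
The horizontal axis orders regions by the length of the longest gene that holds them, from none to 500 kb or more, and the vertical axes give the share (%) listed in a direction with exact 95% intervals. The first class holds regions outside genes or within 1 kb of a gene end. Naive over other effector and naive over Th2 cells are higher in long genes than in that class (28.9% to 43.8% and 7.43% to 16.4%). Both have a level stretch from 100 to 300 kb, and Treg over other effector cells run downward (50.7% to 32.6%).

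By their full pattern of listings, 439 members (16.6%) were listed only as naive over other effector cells, 410 (15.5%) only as Th2 over other effector cells and 290 (11%) only as Treg over other effector cells. Of other regions, 12%, 17.4% and 14.4% had these patterns. A further 233 (8.81%) were higher in naive cells than in other effector and Th2 cells, where 4.93% of other regions had that pattern. Members higher in naive cells than in all 3 other populations numbered 133 (5.03%, against 2.58%). Members listed as higher in both Th2 and Treg cells than in other effector cells, and nowhere else, numbered 146 (5.52%), where 16.4% of other regions had that pattern. All 409 members higher in naive cells than in Th2 cells were also listed, with the same ends, as higher in naive cells than in other effector cells, and so were all 252 of naive over Treg cells. Likewise all 212 of Th2 over Treg and all 121 of Treg over Th2 cells were also listed over other effector cells. This is a property of the tables and not of the members: with the same ends it held for 4331 of 4333 other regions of naive over Th2, and for all 2702, 3273 and 1616 of naive over Treg, Th2 over Treg and Treg over Th2 cells. These tables share populations, so the listings are not independent.

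The folds were large in every table, since the smallest in any was 3.41, and the medians of members lay below those of other regions in 8 of 9 directions, Treg over Th2 cells being the exception (5.62 against 5.57 in the authors' deposited table). In the authors' deposited tables the median log2 fold of members over other effector cells was 5.21 for naive, 4.94 for Th2 and 4.99 for Treg cells, against 5.44, 5.43 and 5.39 for all other rows. For naive over Th2 cells it was 5.08 against 5.31, and for naive over Treg cells 5.29 against 5.32. In the other 4 directions the medians of members in the authors' deposited tables ran from 5.46 to 5.69 and those of other rows from 5.50 to 5.73.

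The folds of 1 region over 2 lower populations often differed by a constant. Of the 409 members higher in naive cells than in both other effector and Th2 cells, 251 (61.4%) had a difference of the former minus the latter fold of -0.18, within 0.02. Over all 409, the fold over other effector minus the fold over Th2 cells ran from -0.19 to 3.56. For naive over other effector and Treg cells, 173 of 252 (68.7%) differed by -0.01 within 0.02. For Th2 over naive and other effector cells, 187 of 226 (82.7%) differed by 0.17, and for Treg over naive and other effector cells 164 of 190 (86.3%) did. The same shares in all other regions were 60.1%, 64.7%, 82.7% and 88.2%. At such regions the tables do not separate the 2 lower populations by more than 1 offset common to the table. Whether both had no reads there was not tested, as the tables hold no counts.

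Among the gene lists, transcription and chromatin regulators and T cell signalling genes held members most densely. The lists were made with earlier results of these data known, so their densities only describe them. Of the 41 long genes on the former, 35 held 549 members, 25.1 per Mb (23.1 to 27.3), with a median of 7 per gene, against a median of 2 over all long genes. Without Foxp1 and Bach2 the list had 413 members in 20.9 Mb, or 19.8 per Mb (17.9 to 21.8). It also holds the adhesion proteins Lpp (29 members) and Ctnna3 (0). T cell signalling, cytoskeleton and calcium genes had 416 members in 29 of 35 genes, 21.7 per Mb (19.7 to 23.9) and a median of 10, and these intervals overlap. The signalling list also holds Fars2 (10 members), a gene outside its theme. Large genes of fragile sites, repair and general cell function had 288 in 31 of 33 genes, 12.8 per Mb and a median of 5. Neuronal adhesion and synaptic genes had 173 in 53 of 114 genes, 1.77 per Mb (1.52 to 2.06) and a median of 0. These 114 genes were longer, at 97.5 Mb together against 21.8 Mb for the 41 regulators. Density fell with gene length, and the part of length in these differences was not tested. The 310 genes on no list had 1219 members, 8.67 per Mb.

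By direction the lists differed less than by density. The share of members higher in naive cells than in other effector cells was 49.7% for transcription and chromatin genes, 42.3% for signalling genes, 47.9% for fragile site and repair genes and 48% for neuronal genes. The background was 33.6%, and over all members the share was 44.6%. Neuronal genes had few members higher in Treg cells: 5 (2.89%) over naive cells and 34 (19.7%) over other effector cells. The background was 6.67% and 46.7%. Neuronal genes had 18 members (10.4%) of Th2 over naive cells, near the background of 9.73%. They had 23 (13.3%) of Th2 over Treg cells, against 6.76%. Their regions were few per gene, with Nav2 (17), Frmd4a (12), Sorcs2 (12) and Ctnnd2 (11) holding most. All 12 regions of Sorcs2, a sorting receptor of neurons, were listed as naive over other effector cells, and all 12 of Frmd4a, a scaffold protein of epithelial polarity, as Th2 over other effector cells. The background in these directions was 33.6% and 53.2%. The longest genes with no member were Lrp1b (2058 kb), Csmd1 (1643 kb), Ctnna3 (1574 kb) and Pcdh15 (1554 kb).

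**Figure D4:**
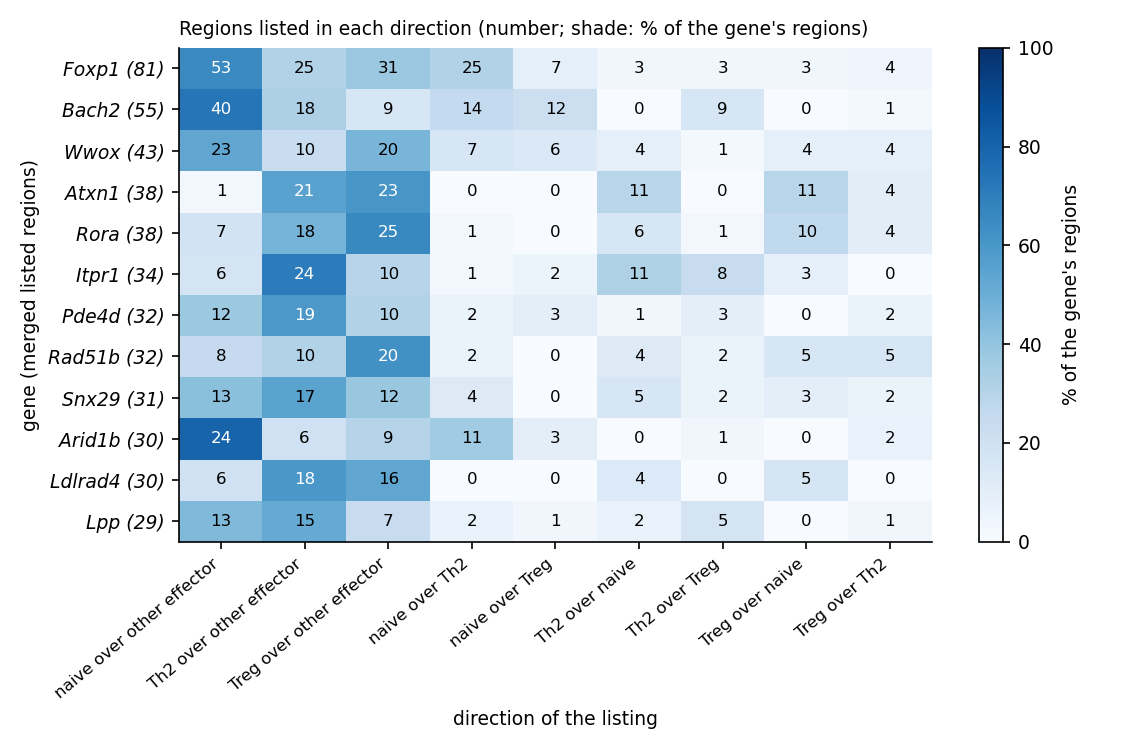
Rows are the 12 long genes with most members (number in brackets) and columns the 9 directions of listing; each cell gives the number of regions, shaded by their share (%) of the gene's regions. Foxp1, Bach2 and Arid1b are darkest for naive over other effector cells (53, 40 and 24), while Atxn1 has 1 there and 21 and 23 for Th2 and Treg over other effector cells.

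Foxp1 was listed most often as higher in naive cells than in other effector cells. Of its 81 members 53 were higher in naive cells than in other effector cells, 25 in naive cells than in Th2 cells and 7 in naive cells than in Treg cells, while 3 each were higher in Th2 and in Treg cells than in naive cells. A further 31 listings were of Treg and 25 of Th2 over other effector cells, the most of any long gene in both directions. Over all listed regions 33.6% were of naive, 46.7% of Treg and 53.2% of Th2 over other effector cells. For Treg and Th2 cells the counts of Foxp1, out of 81, lie below these shares. Against naive cells, the regions higher in Th2 or Treg cells lay only far from the 5′ end of the gene. Of the 25 regions of naive over Th2 cells, 14 were in the third of the gene nearest its 5′ end and 3 in the third farthest from it. All 3 of Th2 over naive and all 3 of Treg over naive cells were in the latter, 472 to 545 kb from the 5′ end. The regions of naive over Th2 cells ran from 81.2 to 567 kb, so the stretches overlapped. The Th2 and Treg sets were not separate, since chr6:98992524-98993571 was in both. The strongest of the naive regions, chr6:99375404-99376202, had a fold of 8.66 over other effector and 6.17 over Th2 cells in the authors' deposited tables, and its Treg over other effector listing was -5.32. Against these, chr6:98992524-98993571 was higher in Th2 (-6.76) and Treg cells (-8.25) than in naive cells in the authors' deposited tables. The median fold in Foxp1 was 5.96 for naive over other effector cells and 5.60 for naive over Th2 cells, in the authors' deposited tables.

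Bach2 had no region higher in Th2 or Treg cells than in naive cells. Of its 55 members 40 were higher in naive cells than in other effector cells, 14 than in Th2 and 12 than in Treg cells, while 18 were higher in Th2 and 9 in Treg cells than in other effector cells. Over all listed regions 33.6%, 9.23% and 5.75% were of naive over other effector, Th2 and Treg cells. For Th2 and Treg over other effector cells the shares were 53.2% and 46.7%, and the counts of Bach2, out of 55, lie below these. Between the other populations Bach2 leaned to Th2 cells, with 9 regions of Th2 over Treg and 1 of Treg over Th2 cells. All listed regions also leaned this way, at 6.76% and 3.37%. Of those 9, 6 lay in the third nearest the 5′ end, and the median distance from that end was 42.2 kb, while the 14 of naive over Th2 cells lay at 69 to 322 kb, with a median of 144 kb. At chr4:32560268-32561211 naive cells were higher than all 3 others, with folds of 8.50 over other effector, 8.27 over Th2 and 8.50 over Treg cells in the authors' deposited tables. Near the 5′ end, chr4:32249806-32251427 was higher in Th2 cells than in other effector (-8.37) and Treg cells (-8.38) in the authors' deposited tables, with no listing against naive cells.

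**Figure D5:**
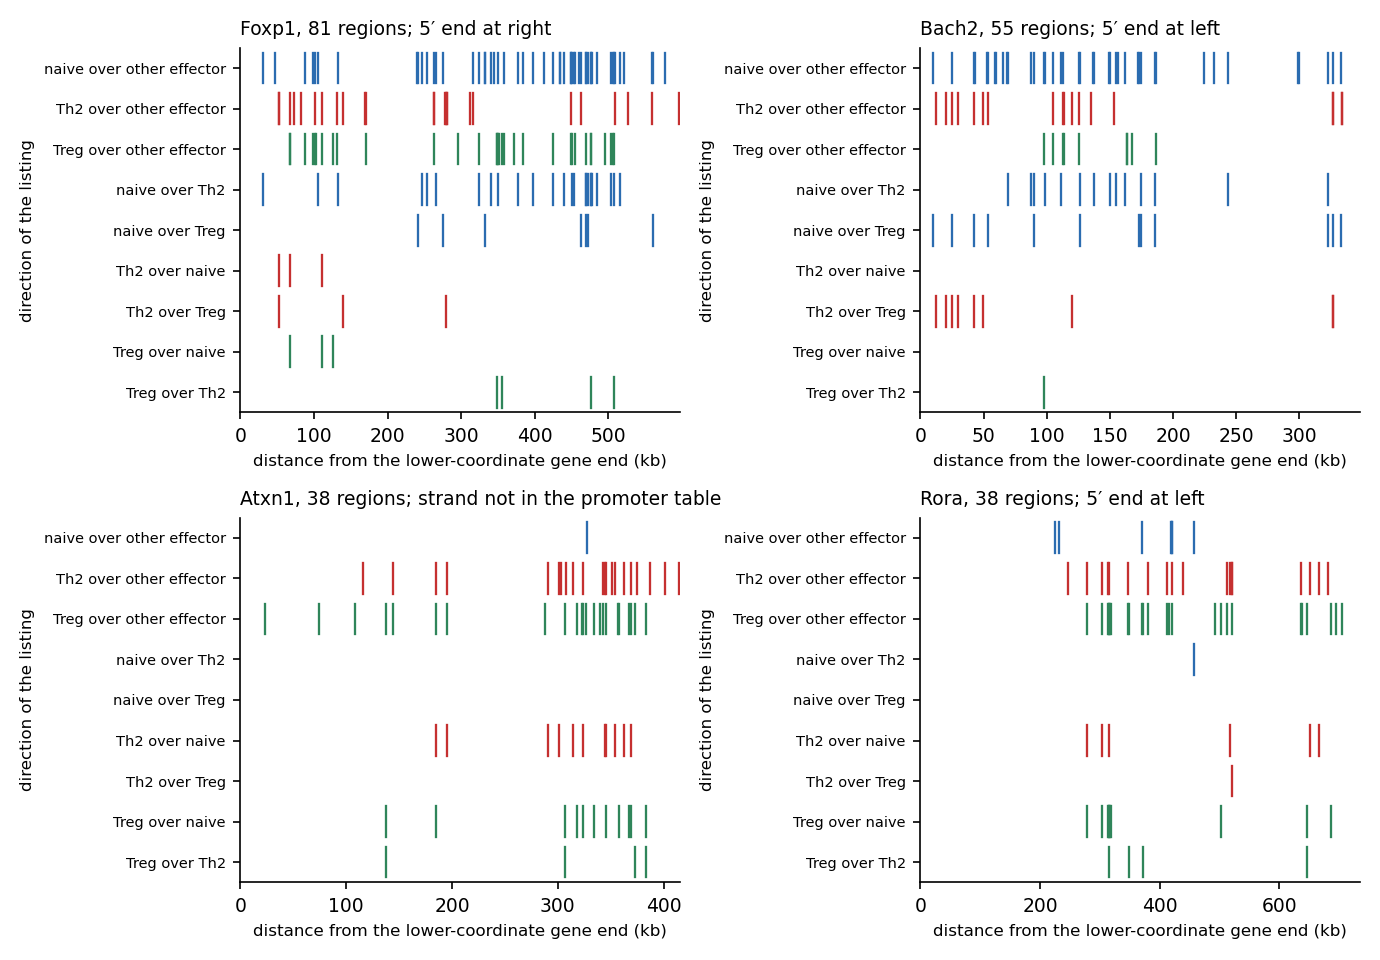
Ticks mark the members of Foxp1, Bach2, Atxn1 and Rora by distance (kb) from the lower-coordinate end of the gene, 1 line per direction of listing. In Foxp1 the 3 regions of Th2 over naive cells lie at the left, away from the 5′ end, and most of the 25 of naive over Th2 cells to the right; Bach2 has none of Th2 or Treg over naive cells, and Atxn1 none of naive over Th2 or Treg cells.

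Atxn1 and Rora had the opposite lean. The background was 33.6% for naive over other effector, 9.73% for Th2 over naive and 6.67% for Treg over naive cells. Only 1 of the 38 regions of Atxn1 was higher in naive cells than in other effector cells and none in naive cells than in Th2 or Treg cells, while 11 were higher in Th2 and 11 in Treg cells than in naive cells, 21 in Th2 and 23 in Treg cells than in other effector cells. Of the 11 of Th2 over naive cells, 9 lay in the third of the gene with the highest coordinates, and so did 9 of the 11 of Treg over naive cells. The region chr13:45872962-45873322 of Atxn1 was higher in Th2 (-4.69) and Treg (-6.24) than in naive cells, and in both than in other effector cells (-4.52 and -6.07), in the authors' deposited tables. Rora had 10 regions of Treg over naive, 6 of Th2 over naive and 1 of naive over Th2 cells, and 25 of Treg and 18 of Th2 over other effector cells. None of its regions of Th2 or Treg over another population lay in the third nearest the 5′ end. Its strongest, chr9:68972281-68972673, had a fold of -8.40 for naive versus Treg cells and -8.22 for other effector versus Treg cells in the authors' deposited tables. A nearby region, chr9:68969438-68969722, was higher in both Treg (-7.89) and Th2 (-5.67) than in naive cells in the authors' deposited tables.

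Itpr1 leaned to Th2 cells beyond the background of 53.2% over other effector, 9.73% over naive and 6.76% over Treg cells. It had 24 of 34 regions of Th2 over other effector, 11 of Th2 over naive and 8 of Th2 over Treg cells, and none of Treg over Th2 cells. Its region chr6:108476578-108477927 had folds of -8.92, -8.75 and -8.76 for naive, other effector and Treg versus Th2 cells in the authors' deposited tables. Elmo1, which works with Dock proteins to activate Rac, had 17 of 27 regions of Th2 over other effector and 6 of Th2 over Treg cells. Vps13d, a lipid transfer protein, had 9 of its 26 higher in Th2 cells than in naive cells and none higher in naive cells than in other effector cells. Pde4d had 19 of 32 of Th2 over other effector cells but 1 of Th2 over naive cells.

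Listings of Treg over other effector cells were most numerous in Foxp1 (31), Rora (25) and Atxn1 (23), and those of Treg over naive cells in Atxn1 (11) and Rora (10). Other genes also held many, where the background of Treg cells was 46.7% over other effector, 6.67% over naive and 3.37% over Th2 cells. Rad51b had 20 of 32 regions of Treg over other effector, 5 of Treg over naive and 5 of Treg over Th2 cells, and its largest fold in the authors' deposited tables was -9.02 for other effector versus Treg cells at chr12:79646360-79647372. Wwox had 20 of 43 of Treg over other effector cells, near the background, beside 23 of naive over other effector cells. In Wwox the third in the middle of the gene held 20 of these 23 naive regions and 12 of these 20 Treg regions, with the other 8 Treg regions in the third with the highest coordinates. The 6 of naive over Treg cells lay 376 to 449 kb from the lower-coordinate end, and the 4 of Treg over naive cells lay at 538 to 787 kb. Hivep3, a zinc finger factor, had 8 of 22 regions of Treg over naive and 5 of Th2 over naive cells, and Inpp4b, a phosphoinositide phosphatase, had 19 of 28 of Treg over other effector cells. Myo3b, a class III myosin, had 8 of 12 of Treg over naive cells.

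A further group leaned to naive cells as Foxp1 and Bach2 did. For naive cells the background was 33.6% over other effector, 9.23% over Th2 and 5.75% over Treg cells. Arid1b had 24 of 30 regions of naive over other effector cells, 11 of naive over Th2 cells and none of Th2 or Treg over naive cells. Maml2, a coactivator of Notch, had 23 of 28 of naive over other effector, 6 of naive over Th2 and 8 of naive over Treg cells. Prkce, a protein kinase C, had 22 of 27 of naive over other effector cells, and Slc4a4, a sodium bicarbonate transporter, had 12 of 14, with 9 of naive over Th2 and 8 of naive over Treg cells. In Slc4a4, chr5:89122897-89123668 had folds of 6.69 over other effector, 6.47 over Th2 and 4.75 over Treg cells in the authors' deposited tables. Rere, a corepressor of the atrophin family, had 16 of 26 of naive over other effector, 7 of naive over Th2 and 7 of naive over Treg cells.

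Genes were counted by whether their regions pointed in the same direction or in both. The share with both directions to be expected if directions fell at random among genes was not worked out. The counts below therefore do not show whether directions mixed freely within genes or kept apart. Among genes with at least 3 members in the naive versus Th2 table, 25 of 95 held only regions higher in naive cells, 13 only regions higher in Th2 cells and 57 (60%) both. For naive versus Treg cells 18 of 74 were naive only, 21 Treg only and 35 (47.3%) both. For Treg versus Th2 cells 5 of 43 were Treg only, 16 Th2 only and 22 (51.2%) both. Tox, an HMG-box factor, had 9 of 19 regions of naive and 12 of Treg over other effector cells, where the background was 33.6% and 46.7%. Against naive cells it held 1 direction only, with 4 of Treg over naive, 2 of Th2 over naive and none of the reverse.

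The largest folds of all members lay in Myo3a, a class III myosin, in 3 regions side by side. They were higher in naive cells than in other effector cells by 11.45 at chr2:22587217-22587809, 12.07 at chr2:22588244-22589249 and 11.27 at chr2:22589363-22589671 in the authors' deposited tables. The same regions were higher in Th2 cells (-10.27, -10.25 and -9.99) and Treg cells (-9.98, -9.92 and -9.85) than in other effector cells in the authors' deposited tables, and none was listed between naive, Th2 and Treg cells. All 4 members in Myo3a had this pattern, and how reads mapped there was not tested.

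Beyond Myo3a, the largest folds came in several patterns. In Bach2, chr4:32342966-32344526 was higher in naive (9.22), Th2 (-5.68) and Treg cells (-5.68) than in other effector cells in the authors' deposited tables. In Maml3, a coactivator of Notch, chr3:52101737-52103553 was higher in naive (9.14) and Th2 cells (-8.12) than in other effector cells in the authors' deposited tables. Other regions were higher in Th2 cells than in all 3 other populations. In Gse1, chr8:120563465-120564920 was higher in Th2 cells than in naive (-8.99), other effector (-8.82) and Treg cells (-8.82) in the authors' deposited tables. In Hivep3, chr4:119966038-119966990 was higher in the same 3 comparisons, with -8.96, -8.72 and -8.73 in the authors' deposited tables. In Cdh23, a cadherin gene, chr10:60380930-60382347 was higher in naive cells than in Th2 (8.97) and other effector cells (8.78), and in Treg cells than in other effector cells (-5.48), in the authors' deposited tables. Most regions of Cdh23 lay in or near a shorter gene, and to which gene this one belongs was not tested.

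Regions in 4 tables separated pairs of populations. In Arhgef28, chr13:98124174-98125189 was higher in Th2 and Treg cells than in naive cells (-7.81 and -8.97) and than in other effector cells (-7.64 and -8.80) in the authors' deposited tables. Myo3b (chr2:70091123-70092516) had -7.95, -8.89, -7.78 and -8.72 in the same order in the authors' deposited tables. Snx29 (chr16:11455590-11456765) had -8.32, -8.86, -8.07 and -8.67, again from the authors' deposited tables. In Pard3, a polarity protein, chr8:127441136-127441560 leaned further to Th2 cells, with -8.41 and -8.24 for naive and other effector versus Th2 cells and -5.53 and -5.36 versus Treg cells in the authors' deposited tables. In Arid1b, chr17:5006923-5007687 was higher in naive cells than in other effector (8.11) and Th2 cells (8.29), and in Treg cells than in the same populations (-6.23 and 6.41), in the authors' deposited tables. In Iqsec1, chr6:90740663-90741228 was higher in naive and Th2 cells than in other effector (8.33 and -6.97) and Treg cells (8.33 and -6.97) in the authors' deposited tables.

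Along the gene, members were spread nearly evenly except at the 3′ end. Of the 2138 members of 265 genes with known strand, 20.1% (18.4 to 21.8) lay in the first of 5 equal parts from the 5′ end, then 19.3%, 17.9% and 18.5%, and 24.3% (22.5 to 26.2) lay in the last. Of the 227 members of Th2 over naive cells, 32.2% (26.1 to 38.7) lay in the last part, against 21.8% (17.6 to 26.5) of the 349 of naive over Th2 cells, and these intervals overlap slightly. No gene held more than 14 of the 519 members in the last part, and over genes the mean share there was 27.2%.

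Regions at marker genes of the sorted populations were counted over 8 genes per list. The 8 naive marker genes held 60 regions of naive over other effector, 31 of naive over Th2 and 16 of naive over Treg cells, and 0 in the reverse directions. These regions also set the sign of the folds, so their direction is no check of the populations. Against other effector cells the reverse was 0 at every region. The Th2 list had 24 regions in 6 genes higher in Th2 cells than in naive cells and 36 than in other effector cells, but also 12 higher in Treg than in naive cells and 28 in Treg than in other effector cells. Between Th2 and Treg cells it had only 3 higher in Th2 and 1 in Treg cells, so it separated these populations little. The Treg list had 13 regions in 6 genes higher in Treg cells than in naive cells and 18 higher in Treg cells than in Th2 cells, against 0 in both reverse directions. Other effector cells had no higher region in any table. The list for Th1 and Th17 cells had 9 regions of Treg, 2 of Th2 and 3 of naive over other effector cells. Of lists for other cells, the B cell list had up to 13 regions in a direction (naive over other effector cells, in 3 genes), the myeloid list up to 8, the CD8 and natural killer list up to 5 and the epithelial list up to 2. Ebf1, on the B cell list, is also a long gene counted among the transcription and chromatin regulators. It held 10 members, all listed as naive over other effector cells. The part of such other cells in the results was not tested.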

How the data were processed

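ATAC-seq libraries were made from 3 biological replicates of 1000 cells per population, per the labels' protocols, which give 30 minutes of tagmentation, 16 PCR cycles and 125-base reads. The labels of other effector and naive cells give day 15 in 1 place and day 10 in another, and the titles were followed. The authors deposited 6 tables of differential regions with 1 fold per region, whose scale is not stated and was read here as log2 because the submitters' processing notes name DiffBind. The depth is unknown, and no aligner, peak caller or threshold is given in the sources used here. While those notes name mm9, the coordinates fit GRCm38: of 58525 distinct regions, 21.2% were at most 1 kb from a GRCm38.p6 gene end, against 4.27% to 6.16% after shifts of 10 to 1000 kb. Coordinates are therefore given as GRCm38 and 1-based. No genome of that build was used, so region sequences and the planned motif search in regions are not reported.

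The sign was read from the naive markers alone. The folds of 4 regions listed in 3 linked tables added up with a residual of 0, which bears on a shared convention and not on its direction, and no region was in all 3 tables of a set with naive versus other effector cells. The gene table gives starts and ends but no exons, and strand came from the promoter table. Python 3.11.15, pandas 2.3.3 and scipy 1.17.1 were used. Of 92372 rows, 1970 outside chromosomes 1 to 19 were left out. The assignment and merging steps were tested on simulated regions. The regions and gene lists were chosen with earlier results of these data known. Genes are named by rule: the 12 with most members, the 3 with most in each table and direction, the 3 largest folds per table, up to 6 regions in the most tables, the 5 highest per Mb with at least 3 members, and up to 4 more per list; not all genes that the rule names are reported here. Alternatives varied the length limit, the edge distance, merging, fold size, nested genes and the tables used. Other genes were named after their values were seen: those with promoter windows, Zfp423 and its neighbours at the length limit, and the longest genes with no member.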

Additional observations from a re-analysis of the deposited data

How the results depend on the processing

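No paired analysis was possible because the tables hold 1 fold per region and no replicate values, and leaving out replicates in turn could not be run for the same reason. Requiring the whole region inside the gene, merging at an overlap of 0.5 of the shorter row, and leaving out regions in or near a shorter gene changed none of the 24 main values beyond their exact 95% intervals (counts: by over 1.5 times). With a limit of 200 kb there were 4834 members, 9.41% of listed regions and 12.1 per Mb, and naive over Th2 cells fell to 13.9%. With 500 kb there were 948, 1.84% and 5.26 per Mb, Treg over naive cells 7.81%, Treg over other effector cells 32.6% and Th2 over Treg cells 9.28%, with median folds of 5.28 (Th2 over naive), 5.04 (naive over Treg), 4.86 (Th2 over other effector) and 5.21 (Th2 over Treg). Beyond 10 kb from both ends the share was 4.83% and the density 8.23 per Mb.

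Above the median fold size of each table there were 1145 members, 4.2% of listed regions and 3.8 per Mb. The listed shares there were 13.9% (naive over Th2), 12.8% (Th2 over naive), 12% (Treg over naive), 36.7% (Th2 over other effector), 31.4% (Treg over other effector), 9.17% (Th2 over Treg) and 5.59% (Treg over Th2). The median folds were by construction larger: 6.42, 6.10 and 6.27 for naive, Th2 and Treg over other effector cells, 6.38 and 6.43 for naive over Th2 and Treg cells, 6.25 and 6.48 for Th2 and Treg over naive cells, 6.12 for Th2 over Treg and 6.29 for Treg over Th2 cells. The share higher in naive cells became 52.1% against Th2 and 43.6% against Treg cells.

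Without the 3 tables of other effector cells, which list most regions, there were 1155 members, 7.11% of listed regions and 3.83 per Mb. Over that smaller total the listed shares were 35.4% and 21.8% for naive over Th2 and Treg, 25.2% and 20.4% for Th2 and Treg over naive, 18.4% for Th2 over Treg and 10.5% for Treg over Th2 cells. Leaving out Foxp1 and Bach2, an alternative added after the data were seen, gave 4.88% and 8.35 per Mb. Of the 40 member counts of named genes, 37 moved by over 1.5 times above the median fold size, 34 without the tables of other effector cells and 2 without nested regions (Cdh23 from 11 to 2 regions, and 1 gene not reported here). Apart from those alternatives that drop rows by construction, the cause of a change was not tested. With no counts or replicates, no fold has an error, and a region absent from a table was not shown to be equal between its populations.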

Other observations

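Some members lay over the promoter of a smaller gene inside the long one. Within Cdh23, a region over a promoter window of Vsir, which codes for the T cell checkpoint VISTA, was higher in Th2 (-4.66) and Treg cells (-6.03) than in other effector cells in the authors' deposited tables. Within Vps13d, a region over the windows of Dhrs3, a retinal reductase, was higher in Th2 than in naive cells (-4.77) in the authors' deposited table. Within Runx2, which codes for a Runt family factor, a region over a window of Supt3 was higher in Th2 (-6.66) and Treg cells (-7.04) than in other effector cells in the authors' deposited tables. Within Kcnq1, a region over a window of the imprinted antisense RNA Kcnq1ot1 was listed in the same directions (-7.40 and -7.46 in the authors' deposited tables). Within Med12l, a region over a window of the nucleotide receptor gene P2ry14 was higher in naive (6.28) and Th2 cells (-5.32) than in other effector cells in the authors' deposited tables. Within Agbl4, a region over a window of Bend5 was higher in naive than in other effector (7.41) and Th2 cells (7.59) in the authors' deposited tables. These genes were chosen after their values were seen, and to which gene a region belongs was not tested.

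Further promoters inside long genes differed beside those printed. In Dst, which codes for the cytoskeletal linker dystonin, a region over a window 104 kb from the 5′ end was higher in Th2 (-6.88) and Treg cells (-7.05) than in naive cells in the authors' deposited tables. A second window of Thrb, 322 kb from the 5′ end, was higher in Treg than in naive (-5.29) and other effector cells (-6.05) in the authors' deposited tables, unlike the first, which was listed as lower in Treg than in naive cells. In Fry, a region over a window 141 kb from the 5′ end was higher in Treg than in naive (-4.56), other effector (-4.77) and Th2 cells (4.95) in the authors' deposited tables.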
